A study of Homo sapiens with 6 samples.

Results

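The detoxification genes NQO1, AKR1B1, AKR1C1, AKR1C2, AKR1C3, GCLM, HMOX1, TXNRD1 and TALDO1, all known targets of the transcription factor NRF2, were followed in long-read counts from Calu-6 cells. They were chosen by symbol, and their counts were summed over the transcript models of the gene in the count table. Every model there had at least 1 siDelta2-4 count, so models read in siControl alone would be missing from these sums. Of the 9 genes listed, 6 had a row in the count table, which held 10072 genes. Over 10 counts were reached by 4 of them (TALDO1, NQO1, AKR1B1 and AKR1C3), and 3 passed the filter on low counts and were tested. Of all 3888 genes tested, 13% were called, at an adjusted p under 0.1. AKR1B1 fell after siDelta2-4 treatment, by 0.50 on the log2 scale, a call that was lost when any of 4 of the 6 libraries was left out. NQO1 and TALDO1 did not pass the test.

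Calu-6 is an established human lung carcinoma line, and all cells were labelled wild type. By the methods of the study, the cells of this experiment stably carried an empty Flag-V5 expression vector, and the names of the count columns carry the word empty for both groups. The first group received siControl, a non-silencing siRNA. The other received siDelta2-4, an siRNA against the junction of exons 1 and 5 of TERT Delta 2-4, a splice variant of the telomerase reverse transcriptase gene. Each group had 3 libraries, made after 48 h with 10 nM siRNA, from 1 line and with 1 siRNA per group.

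NRF2, encoded by NFE2L2, is held at a low level by KEAP1, an adaptor of the CUL3 and RBX1 ubiquitin ligase. Oxidants and electrophiles modify KEAP1, after which NRF2 accumulates, pairs with small MAF proteins and binds antioxidant response elements near its target genes. The targets reduce quinones and carbonyls, make glutathione, reduce thioredoxin, degrade haem and supply NADPH. The pathway is often overactive in lung carcinomas, through changes in KEAP1 or NFE2L2.

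The siControl libraries held 1037468 to 1106413 counts and the siDelta2-4 libraries 1070009 to 1309241, so 1 count was worth 0.758 to 0.965 CPM (counts per 1e6). Libraries are called H, M and L within their group, for the high, middle and low total count, and values are given in that order. siControl L stood apart: leaving it out raised the genes called in the whole table from 504 to 1041. The epithelial keratins KRT8 and KRT18 had 824 and 1124 counts, while the epithelial markers KRT19 and EPCAM had 1 and 13 counts and CDH1 had no row. Vimentin (VIM), a mesenchymal marker, had 987 counts and did not overlap between the groups, at 123.1 to 144.8 CPM in siControl and 151.6 to 165.0 in siDelta2-4 (edgeR adjusted p = 0.1488). Of the 6 epithelial markers 5 had a row, and their summed level overlapped between the groups, at 277.1 to 291.7 CPM in siControl and 272.8 to 329.3 in siDelta2-4. Of the 3 mesenchymal markers 2 had a row, at a summed 123.1 to 144.8 and 151.6 to 165.8 CPM. The part of these markers in the results was not tested. None of the 7 markers of leukocytes, endothelium and fibroblasts had a row. The targeted gene had no row either, so the knockdown could not be checked in these counts. The study calls these libraries biological replicates, but the labels do not say that they came from separate cultures, and p-values measure the spread between these libraries.

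NQO1 was the only one of the 9 genes with more than 1 transcript model above the filter, and its models differ by coding exons and in length. The gene (ENSG00000181019.13) lies on the minus strand of GRCh38 chromosome 16, 69706996 to 69726668. NQO1-201 has 6 exons and 2521 bases. NQO1-202 has 1105 bases, NQO1-203 2527 and NQO1-204 924, so the models also differ outside exons 4 and 5. NQO1-202 lacks exon 4, a coding exon of 114 bases or 38 codons at chr16:69714964-69715077, and the reading frame continues across the new junction. The exon is shown in capitals between 15 bases of its neighbours, above the 30 bases around the junction that replaces it, both 5′ to 3′ on the strand of the gene.
NQO1-201 exon 4: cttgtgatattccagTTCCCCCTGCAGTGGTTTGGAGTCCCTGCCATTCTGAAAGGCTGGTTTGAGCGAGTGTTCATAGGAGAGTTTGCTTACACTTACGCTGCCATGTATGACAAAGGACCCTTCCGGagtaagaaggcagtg
NQO1-202 junction: cttgtgatattccagagtaagaaggcagtg
NQO1-203 lacks exon 5 instead, 102 bases or 34 codons at chr16:69713028-69713129, and NQO1-204 lacks both exons.
NQO1-203 junction: aaaggacccttccggagtggcattctgcat

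The AKR1C genes stand close together on chromosome 10 and encode near-identical aldo-keto reductases, so that reads can be hard to assign. Over 969 coding bases, AKR1C1 and AKR1C2 differed at 19 positions (98% identical), AKR1C1 and AKR1C3 at 83 (91.4%), and AKR1C2 and AKR1C3 at 87 (91%). The stretch of 60 coding bases with the most differences, bases 103 to 162 of each coding sequence, is shown with the 15 differing positions in capitals.
AKR1C1: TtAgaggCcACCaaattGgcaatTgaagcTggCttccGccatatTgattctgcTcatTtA
AKR1C2: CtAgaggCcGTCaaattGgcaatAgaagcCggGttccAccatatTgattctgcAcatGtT
AKR1C3: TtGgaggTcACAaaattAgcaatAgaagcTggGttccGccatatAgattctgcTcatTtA
In this stretch AKR1C3 differed from AKR1C1 at 7 positions and from AKR1C2 at 13. A long read that spans the coding sequence carries many such positions. The counts themselves were split between these genes by the authors' annotation step, and only AKR1C3 received any row.

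The core of the antioxidant response element, TGACNNNGC on either strand, was searched for in the RefSeq promoters (GRCh38.p14, 250 bases before to 50 after each start). It occurred in 4687 of 35116 promoters (13.3%). Of the 8 listed genes with a promoter entry (11 promoters), 2 held a match, GCLM and TXNRD1, neither of which had enough counts to test. This counts genes, while the 13.3% counts promoters, and sites outside the window were not searched for. The matches are shown in capitals, with 10 bases on each side, to place the element that NRF2 is known to bind.
GCLM, chr1:93909456-93909464, opposite strand to the gene: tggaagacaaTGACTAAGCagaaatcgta
TXNRD1, chr12:104215680-104215688, same strand: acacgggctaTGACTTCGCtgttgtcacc
TXNRD1, chr12:104215771-104215779, opposite strand: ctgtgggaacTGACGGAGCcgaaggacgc
TXNRD1, other promoter, chr12:104286930-104286938, opposite strand: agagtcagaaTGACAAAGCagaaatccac
These are matches of letters and were not tested for binding. HMOX1 had no entry in the promoter table.

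NQO1, the quinone reductase most often used to read NRF2 activity, had counts of 93, 104 and 102 in siControl H, M and L. In siDelta2-4 H, M and L the counts were 141, 143 and 104. On the scale of library depth this was 89.8, 98.8 and 96.6 CPM in siControl, against 106.9, 114.6 and 96.2 CPM in siDelta2-4. The groups overlapped, because siDelta2-4 L lay among the siControl libraries. Mean levels were 95.05 ± 4.69 and 105.9 ± 9.24 CPM (SD, n = 3 each). The log2 fold change (LFC) was 0.16 ± 0.13 (SE), with a 95% interval of -0.10 to 0.43 and an adjusted p of 0.4793 in edgeR's quasi-likelihood test, Benjamini-Hochberg adjusted over all 3888 genes tested. The interval leaves room for a fall of up to 0.10, for no change and for a rise of up to 0.43. With siDelta2-4 M left out the LFC of NQO1 was 0.10 (adjusted p = 0.7807), and with siControl H left out it was also 0.10 (adjusted p = 0.8176). With a trend on transcript length removed, the value was -0.02 (adjusted p = 0.9573).

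Most NQO1 counts belonged to NQO1-201, which holds all exons. Counts of NQO1-201 were 56, 66 and 69 for siControl, against 92, 87 and 76 for siDelta2-4. Those of NQO1-202, without exon 4, were 34, 31 and 29 against 45, 47 and 21. The other models were rare, with 26 counts for NQO1-203 and 8 for NQO1-204 over the 6 libraries. NQO1-201 made up 63.77% ± 3.73 of the NQO1 counts in siControl and 66.39% ± 6.20 in siDelta2-4, and NQO1-202 made up 31.6% ± 4.35 and 28.32% ± 7.06 (SD, n = 3 each).

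**Figure D1:**
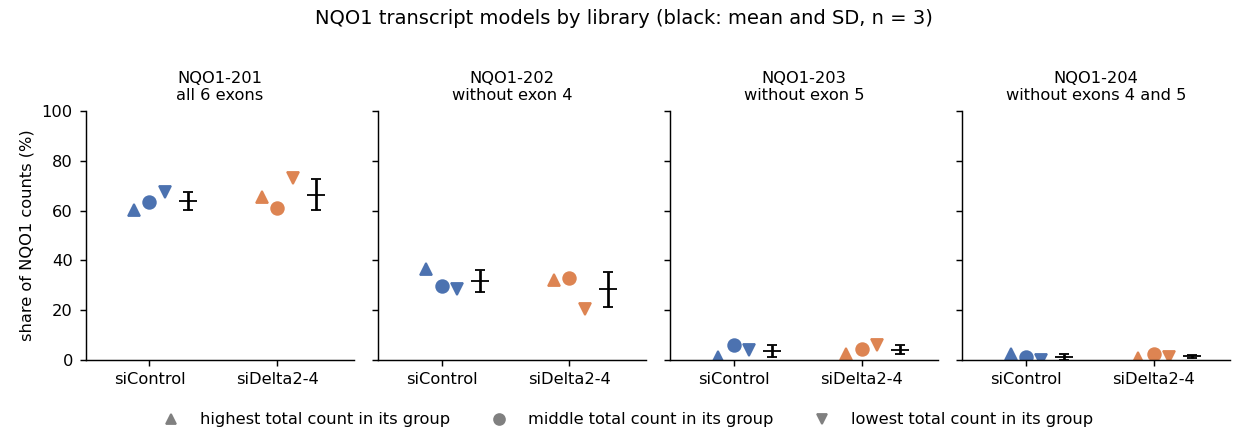
Share of NQO1 counts (%, vertical axis from 0) held by each of the 4 transcript models in every siControl (blue) and siDelta2-4 (orange) library, with the group mean and SD (n = 3) in black and the marker shape giving the place of the library total in its group. The shares of each model overlap between the groups, and siDelta2-4 L has the highest share of NQO1-201 and the lowest of NQO1-202.

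Exon 4 was present in 61.29%, 69.23% and 71.57% of the NQO1 counts in siControl H, M and L. In siDelta2-4 H, M and L it was present in 67.38%, 65.03% and 78.85%. The models that hold exon 4 have 2521 and 2527 bases, and those without it 1105 and 924. The part of model length in these shares was not tested. The exact binomial 95% intervals of single libraries ran from 50.62% to 71.22% at the low end and from 69.74% to 86.24% at the high end, which covers counting error only. Group means were 67.36% ± 5.39 and 70.42% ± 7.39 (SD over 3 libraries each), with p = 0.7 in an exact two-sided permutation test. Exon 5 was present in 95.37% ± 1.86 and 94.71% ± 2.13 of the counts (p = 1 in the same exact permutation test). With 3 libraries against 3, no permutation p can be below 0.1. The test of transcript usage gave an adjusted p of 0.9268 for NQO1, in a table where 0.618% of 1132 genes were called.

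AKR1B1, aldose reductase, reduces glucose to sorbitol and also clears lipid-derived aldehydes. The gene (ENSG00000085662.14) lies on the minus strand of chromosome 7, 134442356 to 134459284, and all its counts came from AKR1B1-201, which has 10 exons. Its counts were 73, 69 and 104 for siControl, against 73, 76 and 53 for siDelta2-4. Scaled for depth, siControl stood at 70.5, 65.5 and 98.5 CPM and siDelta2-4 at 55.3, 60.9 and 49.0 CPM. Every siDelta2-4 library lay below every siControl library, and siControl L lay far above siControl H and M.

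AKR1B1 thus fell from 78.16 ± 17.8 to 55.08 ± 5.95 CPM (SD, n = 3 each). In the gene test its LFC was -0.50 ± 0.17 (SE, 95% interval -0.85 to -0.15), or a fold of 0.709, with an adjusted p of 0.07145. In these bulk libraries, fewer cells with AKR1B1 RNA and less of it per cell cannot be told apart. The gene was 1 of the 3 tested, in a table where 13% of the 3888 genes were called (272 higher and 232 lower) and where 26.2% did not overlap in CPM between the groups. The 3 tested genes had a median LFC of 0.16, beside 0.03 over all genes tested. The call was made at an adjusted p under 0.1 and was lost at 0.05. With siControl L left out, the LFC was -0.32 (adjusted p = 0.1973). Leaving out siDelta2-4 H (-0.50, adjusted p = 0.1672), M (-0.57, adjusted p = 0.127) or L (-0.43, adjusted p = 0.2091) also ended the call. It held when siControl H (-0.58, adjusted p = 0.04823) or M (-0.61, adjusted p = 0.05923) was left out, and with DESeq2 (-0.55, adjusted p = 0.09877). With the trend on transcript length removed the call also held, at -0.65 (adjusted p = 0.01046). Scaling by library totals alone ended the call (-0.43, adjusted p = 0.1723), and the direction was downward in each of these fits. Of the 16 alternatives run, 9 kept the AKR1B1 call and 7 ended it. Processed pseudogenes of AKR1B1 can attract reads of the parent gene, but none of the 8 annotated copies had a row.

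**Figure D2:**
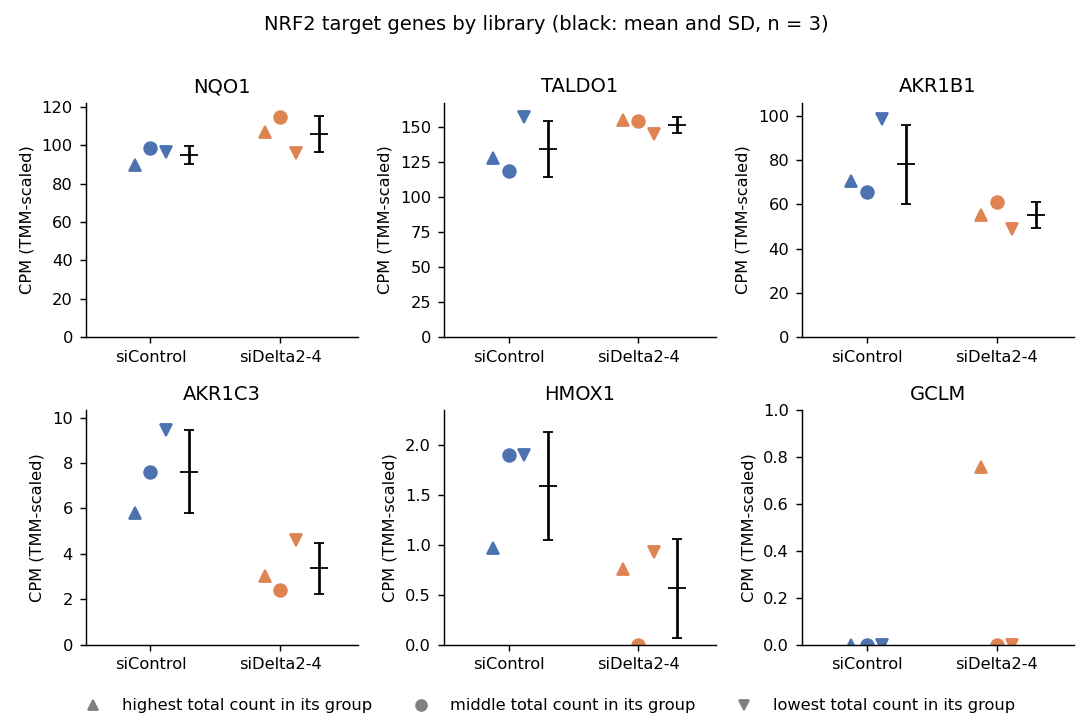
Level of each of the 6 listed genes that had a row, in CPM on scaled library totals (vertical axes from 0, a separate scale in each panel), for every siControl (blue) and siDelta2-4 (orange) library. Black marks give the mean and SD (n = 3), left out for GCLM, which had 1 count in all. AKR1B1 and AKR1C3 are the panels with more than 10 counts whose groups do not overlap. Over all 3888 genes tested 26.2% did not overlap, and AKR1C3 was not among those tested.

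TALDO1 encodes transaldolase, an enzyme of the pentose phosphate pathway that recycles sugar phosphates for the supply of NADPH. It had the highest level of the 9 genes and lies on the plus strand of chromosome 11, 747415 to 765012 (ENSG00000177156.11). Its counts were 133, 125 and 166 for siControl, against 205, 193 and 157 for siDelta2-4. This was 128.4, 118.7 and 157.2 CPM against 155.4, 154.6 and 145.2 CPM. siControl L was above all siDelta2-4 libraries, and siControl H and M were below them, so the groups overlapped.

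Means for TALDO1 were 134.8 ± 20.0 and 151.7 ± 5.69 CPM (SD, n = 3 each). Its LFC was 0.18 ± 0.12 (SE, 95% interval -0.07 to 0.42) and its adjusted p was 0.4047 in the gene test. With siControl L left out, TALDO1 was called as higher, at 0.28 (adjusted p = 0.09565). With siControl M left out it was at 0.09 (adjusted p = 0.8214). The same library thus held the highest level of both AKR1B1 and TALDO1, and leaving it out ended the first call and made the other. With the trend on transcript length removed, the TALDO1 value was 0.03 (adjusted p = 0.9178). All but 1 of the 979 counts belonged to TALDO1-201, which has 8 exons.

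Long reads also gave each transcript model a test of its own. Of the 4 models of these genes that were tested (NQO1-201, NQO1-202, AKR1B1-201 and TALDO1-201), 0 were called with edgeR or DESeq2, in a table where 6.91% of 6768 models were called by edgeR. At an unadjusted p under 0.05 there was 1, AKR1B1-201, whose LFC was -0.47 ± 0.18 (SE, adjusted p = 0.1399). Its counts were those of the gene, so the gene and the model differed only in the table they were fitted and adjusted in. NQO1-201 had an LFC of 0.23 ± 0.16 (adjusted p = 0.4717), NQO1-202 of 0.08 ± 0.24 (adjusted p = 0.9214) and TALDO1-201 of 0.20 ± 0.13 (adjusted p = 0.4268).

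AKR1C3, a reductase of ketosteroids, prostaglandins and drug carbonyls, was far lower and did not pass the filter. The gene (ENSG00000196139.14) lies on the plus strand of chromosome 10, 5035354 to 5107686. Its counts were 6, 8 and 10 for siControl H, M and L, against 4, 3 and 5 for siDelta2-4. These are 5.79, 7.60 and 9.47 CPM against 3.03, 2.40 and 4.62 CPM, and the groups did not overlap. Among the genes tested, which leave out AKR1C3, 26.2% did not overlap. The share of counts in siDelta2-4 was 0.452 of that in siControl, with an exact 95% interval of 0.206 to 0.940 that covers counting error only. An exact two-sided permutation test of the CPM gave p = 0.1, the smallest that 3 libraries against 3 allow. In an edgeR fit without the filter, the adjusted p was 0.232.

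AKR1C1 (ENSG00000187134.14, chromosome 10, 4963253 to 4983283) and AKR1C2 (ENSG00000151632.18, chromosome 10, 4987775 to 5018031) had no row. A count summed over the AKR1C genes is therefore the count of AKR1C3. HMOX1 (ENSG00000100292.18, chromosome 22, 35380361 to 35394214), the inducible haem oxygenase, was at 1, 2 and 2 counts for siControl, against 1, 0 and 1 for siDelta2-4. The ratio of its shares was 0.362, with an exact 95% interval of 0.0344 to 2.209, so that neither a fall nor a rise could be seen at this depth.

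GCLM, the regulatory subunit of the enzyme that starts glutathione synthesis (ENSG00000023909.10, chromosome 1, 93885199 to 93909456), had 1 count, in siDelta2-4 H. TXNRD1, the cytosolic thioredoxin reductase (ENSG00000198431.18, chromosome 12, 104215779 to 104350307), had no row of its own.

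Compared per length, and within siControl, TALDO1 was highest at 112.5 ± 16.7 CPM per kilobase, before AKR1B1 at 57.43 ± 13.1, NQO1 at 45.78 ± 2.26 and AKR1C3 at 6.425 ± 1.55 (SD, n = 3 each). AKR1B1 and NQO1 lay within the SD of AKR1B1 of each other. In siDelta2-4 the order was TALDO1 at 126.7 ± 4.73 CPM per kilobase, NQO1 at 51.01 ± 4.46, AKR1B1 at 40.47 ± 4.37 and AKR1C3 at 2.827 ± 0.964. These levels divide by the mean annotated length of the counted models. Each read was counted once whatever its length, so the division is not needed to rank the genes, and CPM ranks them by reads. On that scale NQO1 stood above AKR1B1 in siControl too, at 95.05 ± 4.69 against 78.16 ± 17.8 CPM (SD, n = 3 each).

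The 4 listed genes with no row or 1 count were those with the longest main transcripts. The median length of a model, weighted by its counts, was 742 bases, and models over 2000 bases held 10.3% of the counts and those over 3000 bases 3.44%. Among the 9 genes, the main annotated transcripts of AKR1C1 (6543 bases), GCLM (4883), TXNRD1 (3860) and AKR1C2 (3215) exceed 3000 bases, and their highest count was 1. The main transcripts of the other 5 genes have 1186 (AKR1C3) to 2521 bases (NQO1), and these genes had 7 to 979 counts. Of 49 other pathway genes, 14 have main transcripts over 3000 bases, of which 1 had over 10 counts (GSTM3, 214 counts). Of the 35 with shorter ones, 19 had over 10 counts. Whether length set these counts was not tested. Because each row of the table had at least 1 siDelta2-4 count, a gene with no row may still have had reads in siControl.

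**Figure D3:**
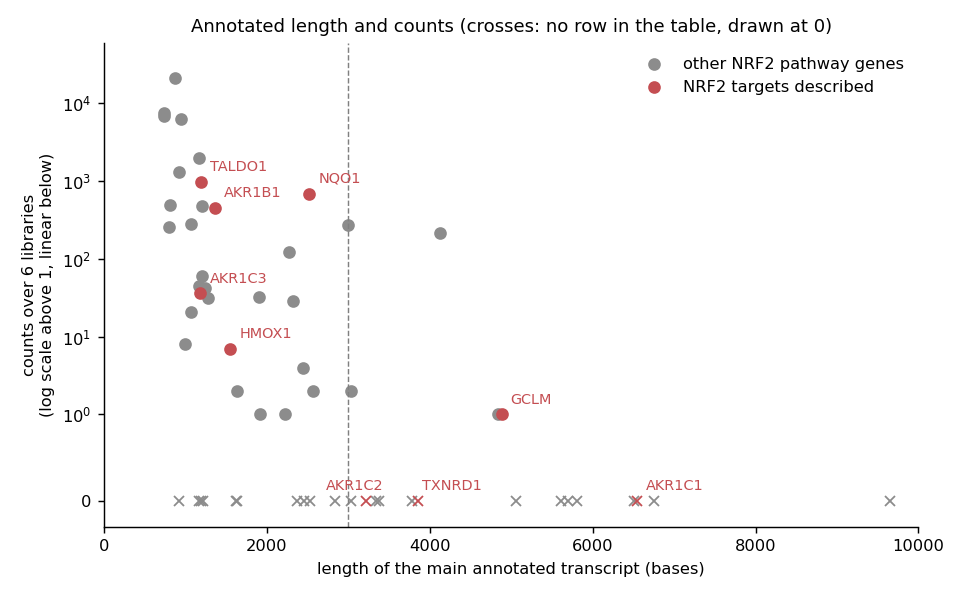
Counts summed over the 6 libraries (vertical axis, log scale above 1 and linear below) against the length of the main annotated transcript in bases, for the 9 listed genes (red) and 49 other NRF2 pathway genes (grey). Crosses at 0 are genes with no row, and to the right of the dashed line at 3000 bases the highest count of a listed gene is 1 and of another pathway gene 214.

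The 49 other genes of the pathway were grouped by role. Rows were present for 28, and 13 were tested. Of these, 0 were called higher and 1 was called lower, FTH1, against 13% called among all genes. Over the 13 the median LFC was 0.01, beside 0.03 for all genes tested. At an unadjusted p under 0.05 there were 3 of the 13 (FTH1, FTL and MGST1), beside 23.1% of all genes tested, and 4 of the 13 did not overlap between the groups, beside 26.2%. Both counts lie near these backgrounds.

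Among the regulators, NFE2L2, which encodes NRF2, was at 1, 1 and 0 counts for siControl H, M and L, against 1, 1 and 0 for siDelta2-4. KEAP1 had 2 counts in all and NFE2L1 had 1. Of the 10 regulators, 4 had a row and only RBX1, the RING subunit of the ubiquitin ligase, was tested. It stood at 317.2 ± 19.6 CPM in siControl and 275.7 ± 16.7 CPM in siDelta2-4 (SD over 3 libraries), with an LFC of -0.20 ± 0.10 (SE, adjusted p = 0.2219). Its groups did not overlap, and with the trend on transcript length removed it was called, at -0.35 (adjusted p = 0.03273). In the other 14 of 15 alternatives run RBX1 was not called, among them leaving out siControl M (-0.16, adjusted p = 0.5305).

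Of 13 glutathione genes, 7 had a row and 4 were tested, with 0 called. GSTP1, the most abundant glutathione transferase here, stood at 1126 ± 46.6 CPM in siControl and 1089 ± 58.7 in siDelta2-4, with an LFC of -0.04 ± 0.08 (adjusted p = 0.7911). MGST1, a microsomal transferase, lay nearest to a call. It stood at 150.6, 179.5 and 181.8 CPM for siControl H, M and L, against 208.4, 205.9 and 211.7 CPM for siDelta2-4, without overlap, and the LFC was 0.29 ± 0.11 (SE, adjusted p = 0.1005). It was called when scaled by library totals alone (0.36, adjusted p = 0.05449), with at least 10 counts required in every library (0.30, adjusted p = 0.07307), with siControl L left out (0.32, adjusted p = 0.03792) and with the length trend removed (0.29, adjusted p = 0.0954). In the other 11 of 15 alternatives run MGST1 was not called, and it was lowest with siControl H left out, at 0.19 (adjusted p = 0.4471). GSTO1 had an LFC of 0.07 ± 0.16 (adjusted p = 0.8289).

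Thioredoxin itself was abundant although its reductase had no row. TXN stood at 1050 ± 75.7 and 994.2 ± 29.5 CPM in siControl and siDelta2-4, with an LFC of -0.08 ± 0.08 (adjusted p = 0.6206). PRDX1, a peroxidase that thioredoxin reduces, stood at 910.2 ± 70.5 and 924.0 ± 23.6 CPM, with an LFC of 0.03 ± 0.08 (adjusted p = 0.8876). Both pairs of groups overlapped.

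For the supply of NADPH, 2 of the 5 other genes were tested and 0 were called. TKT, the transketolase that acts beside transaldolase, had an LFC of 0.20 ± 0.21 (adjusted p = 0.6119), and PGD, 6-phosphogluconate dehydrogenase, of 0.10 ± 0.30 (adjusted p = 0.8843). IDH1 had 29 counts in all and was not tested. In the group of quinone, carbonyl and drug handling, 7 of 14 genes had a row and none passed the filter. The highest were the carbonyl reductase CBR1 with 61 counts, PIR with 31 and NQO2, the quinone reductase related to NQO1, with 21.

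In the group of haem and iron, all 4 genes were tested. FTH1, the ferritin heavy chain, fell from 83.31 ± 4.52 to 59.7 ± 6.26 CPM (SD, n = 3 each). By library this was 82.1, 88.3 and 79.5 CPM for siControl H, M and L, against 65.2, 52.9 and 61.0 CPM for siDelta2-4, with no overlap. Its LFC was -0.48 ± 0.15 (SE, adjusted p = 0.05171). The FTH1 call was lost when siControl M (-0.44, adjusted p = 0.1929), siDelta2-4 M (-0.39, adjusted p = 0.2074) or siDelta2-4 L (-0.49, adjusted p = 0.1062) was left out. Scaling by library totals alone also ended it (-0.41, adjusted p = 0.104), and it passed at 0.1 but not at 0.05. With the trend on transcript length removed FTH1 was called, at -0.59 (adjusted p = 0.01639). Of the 15 alternatives run, 9 kept the FTH1 call and 6 ended it. FTH1 has 25 annotated pseudogenes, of which 2 had a row, with 9 counts together.

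FTL, the ferritin light chain, had a higher level than any other gene of the list. It stood at 3326 ± 164 CPM in siControl and 2916 ± 53.0 in siDelta2-4, without overlap, with an LFC of -0.19 ± 0.07 (SE, adjusted p = 0.1238). FTL was called lower with DESeq2 (-0.24, adjusted p = 0.01999), with siControl L left out (-0.23, adjusted p = 0.00751) and with known transcript models alone (-0.21, adjusted p = 0.04313). In the other 12 of 15 alternatives run it was not called, among them scaling by library totals alone, which gave the smallest value (-0.12, adjusted p = 0.1147), and leaving out siControl H (-0.16, adjusted p = 0.3337). Its 16 annotated pseudogenes held 128 counts, in 2 of them. BLVRA and BLVRB, the biliverdin reductases that act after haem oxygenase, had LFCs of 0.15 ± 0.19 (adjusted p = 0.6906) and 0.01 ± 0.20 (adjusted p = 0.9913).

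**Figure D4:**
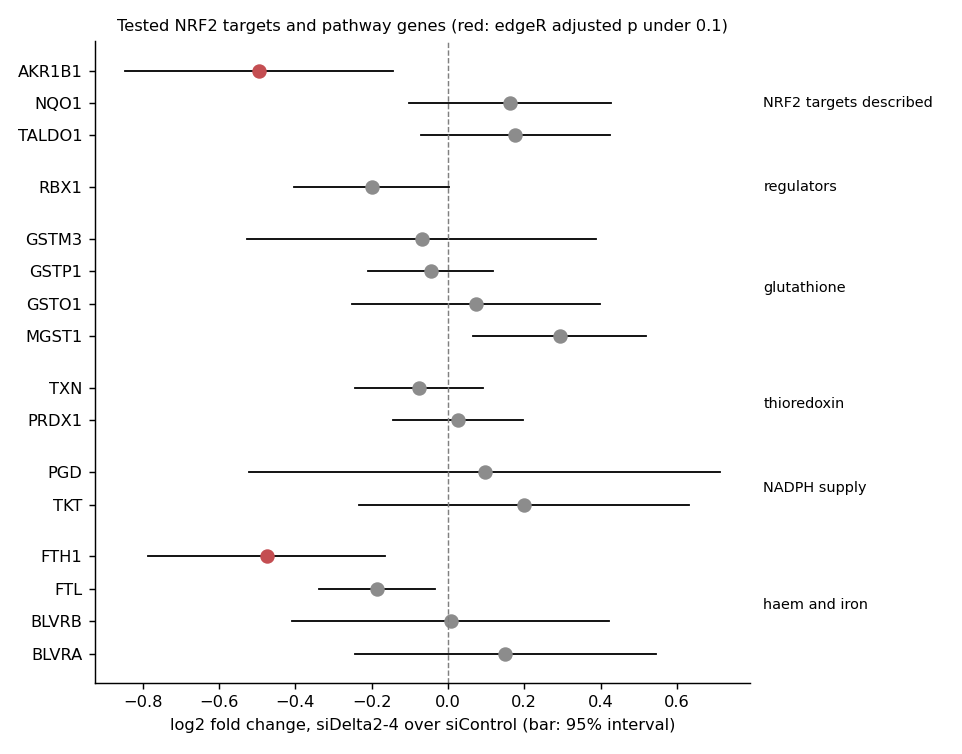
Log2 fold change of siDelta2-4 over siControl (horizontal axis, points) with its 95% interval (bars) for the 3 tested genes of the 9 and the 13 tested genes of the other pathway groups. Red points passed at an adjusted p under 0.1 (edgeR), which are AKR1B1 at -0.50 and FTH1 at -0.48, and the other points are grey.

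Summed over the 6 listed genes with a row, the counts were 306, 308 and 384 for siControl H, M and L, against 425, 415 and 320 for siDelta2-4. As shares of the library totals these were 0.0277%, 0.0286% and 0.0370% against 0.0325%, 0.0351% and 0.0299%, and the groups overlapped. The genes whose log2 CPM followed TALDO1, the gene with the highest level of the 9, most closely over the 6 libraries were RPL4 (Pearson r = 0.9979), a ribosomal protein of the large subunit, and the unannotated loci TALONG000079992 (r = 0.9977) and TALONG000071859 (r = 0.9899). They are the highest of 3888 genes compared, over points that share their libraries and depth, and are given as a description.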

How the data were processed

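Poly(A) RNA of 6 Calu-6 libraries was sequenced as PCR-cDNA on 1 Nanopore flow cell. The deposited values were raw counts of reads per transcript model, which the authors made with minimap2 2.14, SAMtools 1.13, TranscriptClean and TALON on GRCh38.p14 with Gencode 44, with a minimum of 5 reads in 3 samples for unannotated models (annotated ones with 1 count are in the table). Every model in the table had at least 1 siDelta2-4 count. The siRNA in each column name gave its group, and 0 columns were left out. Counts were summed per gene and tested with edgeR 4.0.16 (R 4.3.3) after filterByExpr (TMM, quasi-likelihood F test, two-sided, no covariate, Benjamini-Hochberg over all genes or models, called at an adjusted p under 0.1). Usage was tested with diffSpliceDGE. CPM used TMM-scaled totals, and SEs are the log2 fold change over the square root of F. DESeq2 1.42.0 was an alternative. Scripts were tested on simulated data. Named were the 9 genes, overlapping genes with counts (not reported here), pathway genes that were called or had the 3 highest counts of their group, and the 3 genes most like TALDO1. Members and lists were chosen with earlier results of these data known. Promoters came from RefSeq, other sequences from Gencode 44.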

Additional observations from a re-analysis of the deposited data

How the results depend on the processing

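NQO1, AKR1B1, AKR1C3 and TALDO1 kept their direction under every alternative run, except NQO1, which turned to -0.0163 with the trend on length removed. AKR1B1 was no longer called with library totals alone (-0.4308), at an adjusted p under 0.05 (-0.4963) or with the replicate block (-0.4924, adjusted p = 0.1223). It stayed called with the trend on length removed (-0.6504, adjusted p = 0.01046). With each library left out in turn it ranged from -0.6129 to -0.3157, and TALDO1 from 0.0880 to 0.2805, the highest with siControl L left out. The number of the 9 genes called was 0 with library totals alone, 0 at an adjusted p under 0.05, 0 with the replicate block and 0 to 1 with a library left out. The number of other pathway genes called was 2 with DESeq2, 2 with at least 10 counts in every library, 0 at an adjusted p under 0.05, 0 with the replicate block, 3 with the length trend removed, 2 with known models alone and 0 to 3 with a library left out. Of the models of the 9 genes, 0 to 1 were called with a library left out. Over the whole table, 504 genes were called, against 279 with DESeq2, 304 at an adjusted p under 0.05, 299 with the replicate block, 252 with known models alone and 194 to 1041 with a library left out. Deviations of same-numbered libraries from their group means had correlations of 0.039, -0.136 and -0.0843 for numbers 1, 2 and 3. With 3 libraries per group this cannot decide whether the numbers mark pairs, and the labels do not say. The cause of each change was not tested, beyond the fewer libraries or genes that some alternatives use by construction. Counts of a few reads limit HMOX1, GCLM and AKR1C3, and their rows, like all rows, held at least 1 siDelta2-4 count.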

Other observations

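Relatives of the listed genes were examined after their values were seen. AKR1A1, an aldehyde reductase of the same superfamily as AKR1B1, had 45 counts in siControl and 68 in siDelta2-4, with an LFC of 0.38 ± 0.30 (SE, adjusted p = 0.477 in edgeR's quasi-likelihood test). HMOX2, the constitutive haem oxygenase, had 20 and 37 counts, beside 5 and 2 for the inducible HMOX1, and did not pass the filter. TXNRD2, the mitochondrial thioredoxin reductase, had 3 and 2 counts. NQO1-DT, a non-coding gene that starts on the opposite strand 100 bases from the start of NQO1 (chromosome 16, 69726768 to 69742563), had 26 and 32 counts, or 8.287 ± 2.86 and 8.675 ± 2.39 CPM (SD, n = 3 each), with groups that overlapped.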
